A study of Mus musculus with 6 samples.

Results

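Chaperones are proteins that help other proteins to reach or keep their folded state. The cytosolic HSP90 proteins work on kinases, steroid receptors and other clients together with co-chaperones, the HSP60 chaperonin encoded by Hspd1 folds proteins imported into mitochondria, and small heat shock proteins hold unfolded proteins in solution without using ATP. Clusterin acts outside the cell, where it binds misfolded proteins. Many of these genes carry heat shock elements, short repeats bound by heat shock factors, and many tumor cells hold high levels of HSP90.

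The genes described here are 5 chaperones of 3549 entries in the study's list of genes that differ between melan-a and B16 cells: Clu, Hspb8, Hsp90aa1, Hspd1 and Fkbp4. They were found by gene name in that list. The array files name no gene, so each gene's probe was found by its value: a probe is a candidate where its mean ratio over the arrays gives the listed fold within 0.00051. The 5 genes have 9 candidate probes of 41174 on the array. The ratio between the cell lines thus chose both the genes and the probes, and it is given below as a description, without a test.

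Each of the 6 arrays compared a separate biological replicate of both lines. Melan-a is a non-tumorigenic mouse melanocyte line, only partly immortal and with a diploid genome, kept in RPMI 1640 with 5% fetal bovine serum and 200 nM phorbol 12-myristate 13-acetate. B16 is a mouse melanoma line kept in DMEM with 10% bovine calf serum. Both lines have the C57/Bl6 background, neither received retinoic acid, and both were harvested 72 h after seeding at a like confluence. Each cell type is a single line in its own medium, so malignancy, line, serum and phorbol ester cannot be told apart. On replicates 1, 3 and 5 melan-a cDNA carried Cy5 and B16 cDNA Cy3, which the labels call standard labeling, and on replicates 2, 4 and 6 the dyes were reversed. The deposited value table of the series exchanges replicates 4 and 5, its column for each holding the values of the other's array file, turned the way that array file's own dye labels give. Numbers and dyes here follow the array files, and by the value table the values of replicates 4 and 5 would change places. The labelled tissue was checked by marker genes in the study's list, where a gene not found by symbol or accession has no named probe. Of 14 melanocyte lineage markers 3 were found: Kit and Oca2 were higher in melan-a, and Gpnmb was lower. Of the markers of other cell types, 1 of 8 fibroblast markers (Col1a1, mean log2 ratio 2.85), 1 of 6 macrophage markers (Lyz2, 2.49), 1 of 4 endothelial markers (Kdr, 0.75, with 6 of its 7 candidate probes called) and 0 of 6 keratinocyte markers were found. Their part in the chaperone ratios was not tested. The arrays differed in brightness and spread: the median summed signal of both dyes was 780 to 4308 per array, and the SD of the log2 ratio over all probes was 0.48 (replicate 6) to 0.80 (replicate 4).

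How far a name can be trusted differs between the genes. Clu and Hspb8 lie far from all other probes: no other probe had a fold within 0.01 of the listed one, and the next was 0.16 away for Clu and 0.0828 for Hspb8. Hsp90aa1 also had a single candidate, 0.000318 from the listed fold, but 26 probes lay within 0.01 of that fold and the next was 0.000735 away. Hspd1 had 2 candidates (the farther at 0.000436, the next probe outside at 0.000587) and shared them with 1 other entry of the same fold. Fkbp4 had 4 candidates (the farthest at 0.000391, the next probe outside at 0.00054) and shared them with 2 other entries. The study lists 1 feature per gene, so at most 1 candidate of Hspd1 and 1 of Fkbp4 is the listed feature. Where a gene has several features, the study lists the one with the largest fold. The folds below may thus exceed those of a gene's other features, which are not named. The entries that share the candidates need a probe each, so some candidates belong to other entries. Which ones is unknown, and all candidates are given side by side.

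RefSeq promoter windows (GRCm38.p6, from 250 bases before to 50 bases after the start) matched 3 of the 5 genes, Hspd1 with 2 starts, Fkbp4 and Hspb8 with 1 each. They were searched on both strands for the heat shock element letters GAANNTTC and TTCNNGAA, which read the same on either strand, and for CACGTG. The stretches shown are those that hold the element letters in each matched gene. The matched letters are in capitals, and each stretch is written in the direction of its gene:
Hspd1 (chr1:55088053-55088082, minus strand, 150 to 121 bases before the second start): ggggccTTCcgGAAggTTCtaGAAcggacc
Fkbp4 (chr6:128438789-128438818, minus strand, 162 to 133 bases before the start): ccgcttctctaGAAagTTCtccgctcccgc
Hspb8 (chr5:116422855-116422884, minus strand, from 20 bases before the start to base 10 after it): gctcccagcccagaagccaggaGAAgtTTC
In Hspd1 TTCNNGAA starts 144 and 134 bases before the second start and GAANNTTC starts at 139, so the matches overlap and form 1 run of alternating units. A run of at least 3 alternating units was found in 0.603% of all 32851 windows. The same letters, read on the other strand, lie 89 to 72 bases before the start of Hspe1, the co-chaperonin of HSP60, which is transcribed away from Hspd1. The single GAANNTTC of Fkbp4 and of Hspb8 is a common match, found in 7.86% of windows, and TTCNNGAA was found in 8.52%. The Hspd1 window at the first start held CACGTG 80 bases before the start, a match found in 7.15% of windows. Of 109 genes of the chaperone lists given further below that have a window, 27 held either of the GAANNTTC and TTCNNGAA forms (24.8%, against 16.97% of 27025 genes with a window) and 5 held at least 3 alternating units (4.59% against 0.662%). Hspd1 and Hspe1 are both among the 27 and the 5, so the run they share is counted for both genes. Among list genes called lower in melan-a, 6 of 19 held either form, with Hspd1 and Fkbp4 among the 6. Among those called higher 1 of 7 did, and that gene was Hspb8 itself. The calls of Hspd1, Fkbp4 and Hspb8 rest on the ratio that chose them and are not a test. With these genes in the counts, the shares do not compare the directions. A match of letters does not show that a factor binds there.

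Of the chaperones chosen here, Clu and Hspb8 were those with more transcript in melan-a. Clu encodes clusterin. Its log2 ratio of melan-a over B16 was 4.43, 5.80, 4.46, 4.65, 2.31 and 2.23 on replicates 1 to 6 (probe A_51_P367720). Every array was higher in melan-a, replicate 2 by the most and replicates 5 and 6 by the least. The mean was 3.98 ± 1.42 (SD, n = 6), a level 15.8-fold that of B16, and single arrays ran from 4.69-fold to 55.9-fold. On each array at most 0.16% of probes had a higher ratio than Clu, and on replicate 2 none did.

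The log2 signal of Clu in melan-a was 11.9, 13.6, 14.8, 15.4, 13.4 and 12.1, and in B16 it was 7.50, 7.79, 10.3, 10.7, 11.1 and 9.88. The lowest melan-a signal was above the highest B16 signal. On replicate 1 the B16 signal was below 8.26, the 95th percentile of the empty and negative control spots for that dye, so B16 was above this background on 5 of 6 arrays. On replicate 2, which had the largest ratio, the B16 signal of 7.79 was little above that array's mark of 7.54. Equal amounts of labelled cDNA were hybridised, so these are relative levels in bulk RNA, in which fewer cells that express a gene and less RNA per cell cannot be told apart. The array spreads differed too. In units of each array's own SD, the Clu ratio was 7.69, 9.33, 7.79, 5.80, 4.68 and 4.63 for replicates 1 to 6, so replicates 5 and 6 remained the lowest.

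Hspb8 encodes a small heat shock protein that works with the co-chaperone Bag3 in the removal of misfolded proteins by autophagy. Its log2 ratio was 2.58, 3.72, 4.62, 4.497, 2.76 and 2.90 on replicates 1 to 6 (probe A_51_P464387). All arrays were again higher in melan-a, with replicates 3 and 4 the highest and replicate 1 the lowest. The mean was 3.51 ± 0.90 (SD, n = 6), or 11.4-fold, and at most 0.328% of probes on an array had a higher ratio. The melan-a log2 signals of 11.6, 11.2, 13.97, 13.6, 13.9 and 13.1 stood against B16 signals of 8.98, 7.45, 9.34, 9.10, 11.1 and 10.2. The lowest melan-a signal, 11.17 on replicate 2, and the highest B16 signal, 11.12 on replicate 5, nearly met. The B16 signal was above the control-spot background on 5 of 6 arrays and below it on replicate 2.

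Clu and Hspb8 did not keep 1 order. The log2 ratio of Clu minus that of Hspb8 was 1.85, 2.08, -0.17, 0.15, -0.45 and -0.67, so Clu had the larger ratio on replicates 1, 2 and 4 and Hspb8 on replicates 3, 5 and 6. The mean difference of 0.47 was smaller than its SD of 1.20. The differences on replicates 1 and 2, and with them this mean and SD, rest on B16 signals below the control-spot background, of Clu on replicate 1 and of Hspb8 on replicate 2, so the order on replicate 2 is not settled. Bag3, the partner of Hspb8, was listed as higher in melan-a with a mean log2 ratio of 0.73, but 1 of its 4 candidate probes did not pass the test described with the lists below.

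**Figure D1:**
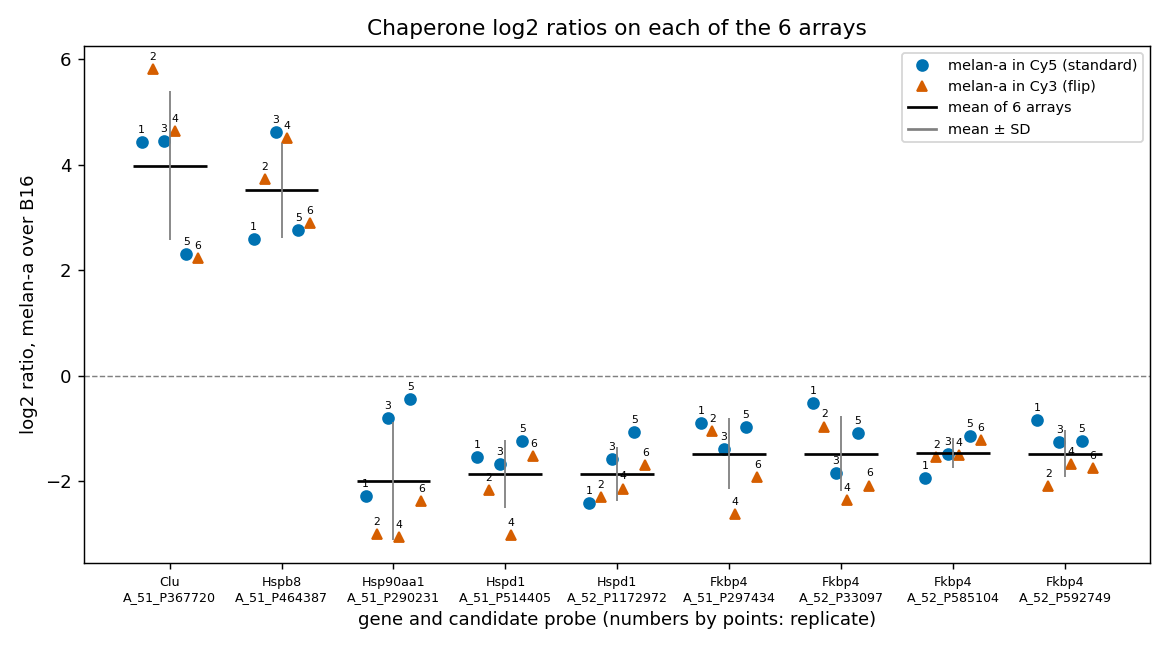
Log2 ratio of melan-a over B16 for the 9 candidate probes of the 5 chaperones, with 1 point per array (circles, melan-a in Cy5; triangles, melan-a in Cy3), the mean of 6 arrays as a black line and the SD as a grey bar. Clu and Hspb8 lie above 0 on every array, from 2.23 to 5.80, and all probes of Hsp90aa1, Hspd1 and Fkbp4 lie below 0, from -3.07 to -0.45.

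Hsp90aa1, the stress-inducible cytosolic HSP90, had more transcript in B16. Its log2 ratio was -2.28, -3.00, -0.80, -3.07, -0.45 and -2.39 on replicates 1 to 6 (probe A_51_P290231). All arrays were lower in melan-a, but replicates 3 and 5 were much closer to 0 than the others. The mean was -1.998 ± 1.12 (SD, n = 6), so the B16 level was 3.99-fold that of melan-a, and single arrays ran from 1.36-fold to 8.38-fold. On replicate 5, 12.9% of all probes had a lower ratio than Hsp90aa1 and on replicate 3 4.44% did, while on the other arrays at most 0.291% did.

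The Hsp90aa1 spot was bright. Its B16 log2 signal was 13.0, 14.2, 14.8, 15.1, 15.6 and 15.2, and its melan-a signal 10.7, 11.2, 14.01, 12.1, 15.2 and 12.8. The signals of the lines overlapped across arrays, though B16 was the higher on each. Replicates 3 and 5, with the smallest differences, had the highest melan-a signals. On replicate 5 the B16 signal was 15.62, where the brightest probe spot of that dye reached 16.03. The part of this in the ratio was not tested.

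**Figure D2:**
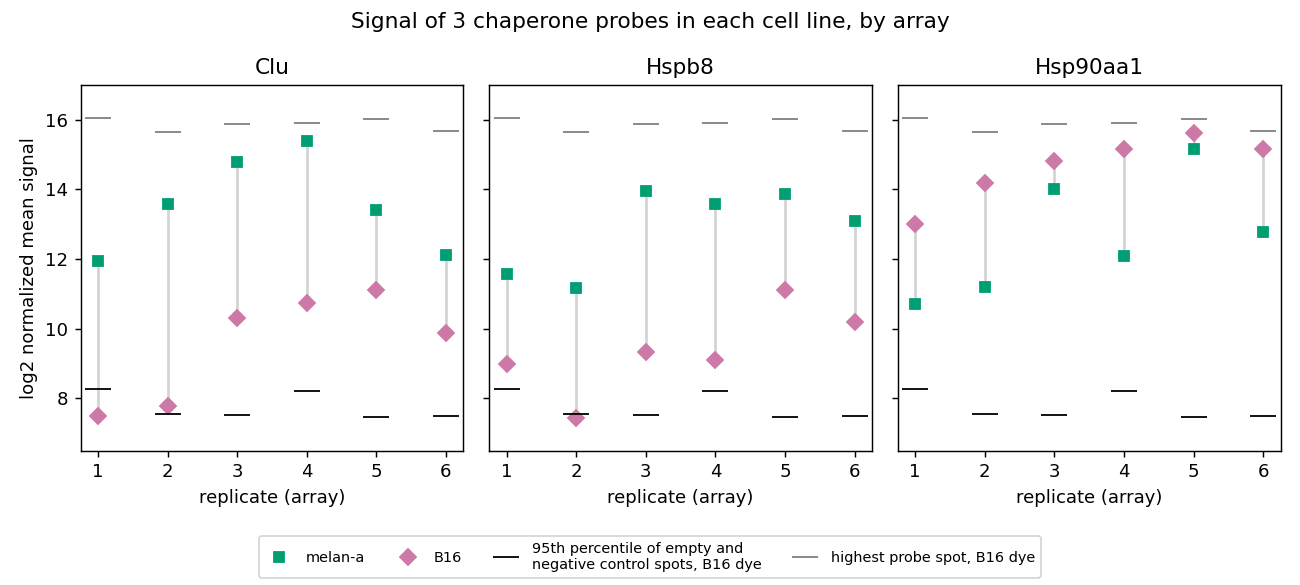
Log2 normalized signal of Clu, Hspb8 and Hsp90aa1 in melan-a (squares) and B16 (diamonds) on each array, with the 95th percentile of control spots and the brightest probe spot for the B16 dye as black and grey dashes. The B16 signal of Clu on replicate 1 (7.50) and of Hspb8 on replicate 2 (7.45) lies below the control-spot mark, and both signals of Hsp90aa1 on replicate 5 (15.2 and 15.6) lie near the top.

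Hspd1 encodes HSP60, the mitochondrial chaperonin. Its first candidate (A_51_P514405) had log2 ratios of -1.54, -2.18, -1.68, -3.03, -1.25 and -1.52, and its second (A_52_P1172972) had -2.42, -2.31, -1.59, -2.14, -1.07 and -1.70. Both were lower in melan-a on every array, and both were nearest to 0 on replicate 5. The means were -1.87 ± 0.65 and -1.87 ± 0.51 (SD, n = 6), which was 3.65-fold higher in B16. Since the listed fold fixed this mean, only the course over the arrays could differ between the candidates, and their difference on an array ran from -0.89 on replicate 4 to 0.88 on replicate 1. The melan-a log2 signals of the first candidate, 7.90 to 10.7, were above the control-spot background on 5 of 6 arrays, and those of the second, 10.5 to 14.5, on all 6. The B16 signal of the second was 15.61 on replicate 5, where the brightest probe spot of that dye reached 16.03. The part of this in the ratio was not tested. Hspe1 was not found in the study's list by symbol or accession and is not analysed here.

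Fkbp4 encodes FKBP52, an immunophilin that joins HSP90 in steroid receptor complexes. Its 4 candidates had mean log2 ratios of -1.48, fixed by the listed fold, or 2.79-fold higher in B16. Candidate A_51_P297434 had -0.91, -1.06, -1.39, -2.63, -0.97 and -1.92 on replicates 1 to 6 (SD 0.68), and A_52_P33097 had -0.53, -0.97, -1.85, -2.35, -1.09 and -2.09 (SD 0.72). These 2 probes were lowest on replicate 4. Candidate A_52_P592749 had -0.84, -2.10, -1.25, -1.68, -1.24 and -1.76 (SD 0.45), lowest on replicate 2. The steadiest, A_52_P585104, had -1.95, -1.54, -1.49, -1.50, -1.15 and -1.23 (SD 0.28), lowest on replicate 1. All 4 were below 0 on every array. On a single array the candidates lay 0.27 to 1.42 apart, so the level of Fkbp4 on 1 array is known less well than its mean. The melan-a signal of A_51_P297434 was above background on 5 of 6 arrays, and the other candidates were above it in both lines on all arrays. The B16 log2 signal of A_52_P585104 was 15.58 on replicate 5, also near the brightest probe spot of that dye (16.03).

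Set against each other within an array, the upper and lower chaperones were apart on all arrays, as the choice of genes fixed. The log2 ratio of Clu minus that of Hsp90aa1 was 6.71, 8.81, 5.26, 7.71, 2.76 and 4.62, widest on replicate 2 and narrowest on replicate 5. The same difference for Hspb8 was 4.86, 6.73, 5.43, 7.56, 3.20 and 5.28, widest on replicate 4 and again narrowest on replicate 5.

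The dye orientation of an array is independent of the mean ratio that chose the probes, because each orientation had 3 arrays, and it was tested with limma over 39659 probes. For Hsp90aa1 the mean log2 ratio was -1.18 with melan-a in Cy5 and -2.82 with melan-a in Cy3. The orientations did not overlap, but the nearest arrays (-2.28 and -2.39) almost met. The dye effect, standard minus flip, was 1.64 (SE 0.45, 95% interval 0.64 to 2.65, limma unadjusted p = 0.00487, adjusted p = 0.243). For the Fkbp4 candidate A_52_P592749 it was 0.74 (limma unadjusted p = 0.0123, adjusted p = 0.275). These were the 2 of 9 member probes with an unadjusted p under 0.05, where 13.2% of all probes had one, and 0 of 9 passed an adjusted p under 0.10, where 16 probes or 0.0403% did. The orientation means were 3.73 (standard) and 4.23 (flip) for Clu and 3.32 and 3.71 for Hspb8, and the intervals of their dye effects, -2.44 to 1.45 and -1.66 to 0.89, reach past 1.64 in size on the flip side. For Hspd1 the means were -1.49 and -2.25 at the first candidate and -1.69 and -2.05 at the second.

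The wider chaperone network was read from 8 lists of 134 genes, 129 of them besides the 5 described above. Of these 129, 39 were found in the study's list, 10 as higher and 29 as lower in melan-a, with a median log2 ratio of -0.865. The study chose its entries on these same arrays, so these counts are not independent evidence of direction. The study's whole list also holds more genes lower than higher in melan-a. The share of all genes found in that list was not computed, so the counts found, here and by family, are a description only. A probe was called at a limma adjusted p under 0.10 and a fold over 1.5, which 5.23% of 39687 probes passed as higher in melan-a and 6.31% as lower. Among probes with a fold over 1.5, as all entries have, 88.9% passed. A gene was called where every candidate probe passed. By this measure 7 list genes were higher, 21 were lower and 11 had at least 1 candidate that did not pass. Only 2 of the 39 genes had a single candidate, so the shares of single probes do not carry over to genes called on every candidate. Without replicate 2 the calls were 4 higher and 10 lower, and without replicate 3 13 were lower.

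Among HSP90 proteins and co-chaperones, 8 of 22 further genes were found, and 3 were called lower and 1 higher. Ppid, the cyclophilin of HSP90 complexes, had a mean log2 ratio of -1.23, the phosphatase Ppp5c had -0.997, and Hsp90ab1, the constitutive cytosolic HSP90, had -0.89. The candidates of Hsp90ab1 numbered 14, so which of them belongs to it is unknown. Ahsa1, which stimulates the ATPase of HSP90, had -0.78 with 11 of 12 candidates called. Cdc37l1, a relative of the kinase co-chaperone Cdc37, ran the other way at 0.82. In mitochondria Hspa9, the HSP70 of the matrix, was found beside Hspd1, with -0.64 and 12 of 13 candidates called.

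The HSP70 and J proteins were mixed: of 31 genes 10 were found, 5 called lower and 3 higher. The lower ones included the ribosome-associated Dnajc2 (-1.35), Dnajc9 (-1.10) and Hspa4, an HSP110 nucleotide exchange factor (-1.09). The higher ones were Hspa2 (0.87), an HSP70 abundant in testis, and the J proteins Dnajc12 (0.76) and Dnajb2 (0.66). Dnajb4 had 2 entries, of which the one with a single candidate had 1.24, and 3 of its 4 candidates passed.

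TRiC, the cytosolic chaperonin that folds actin and tubulin, and prefoldin, which delivers clients to it, had the largest share of genes found, 9 of 15, with 7 called lower and 1 higher. The subunits Tcp1 (-1.09) and Cct8 (-1.08) and the prefoldin subunit Vbp1 (-1.04) were lower in melan-a. The prefoldin subunit Pfdn5 was the exception at 1.26, with both candidates of its 2 entries called. Cct6a and Ppp5c have the same listed fold and the same 10 candidates, so these genes count the same probes. The same holds for Stip1 and Dnaja2 with 12 candidates.

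In the endoplasmic reticulum 5 of 25 genes were found. Fkbp11 (-1.32) and the oxidase Ero1a (-0.92) were called lower, Fkbp14 (1.17) was called higher, and Canx, the lectin chaperone calnexin (-0.69, 14 of 16 candidates called), and Sil1, a nucleotide exchange factor (0.60, 5 of 7), had candidates that did not pass. Hsbp1, which binds heat shock factor 1 and was the only one of 5 listed under heat shock factors to be found, was called higher (1.10). All 4 of 10 other immunophilins that were found were called lower: Fkbp6 (-2.52, a single candidate), Fkbp3 (-1.26), Ppih (-1.24) and Ppif, the cyclophilin of mitochondria (-1.11). The remaining 90 genes of the lists were not found in the study's list by symbol or accession and have no value here.

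**Figure D3:**
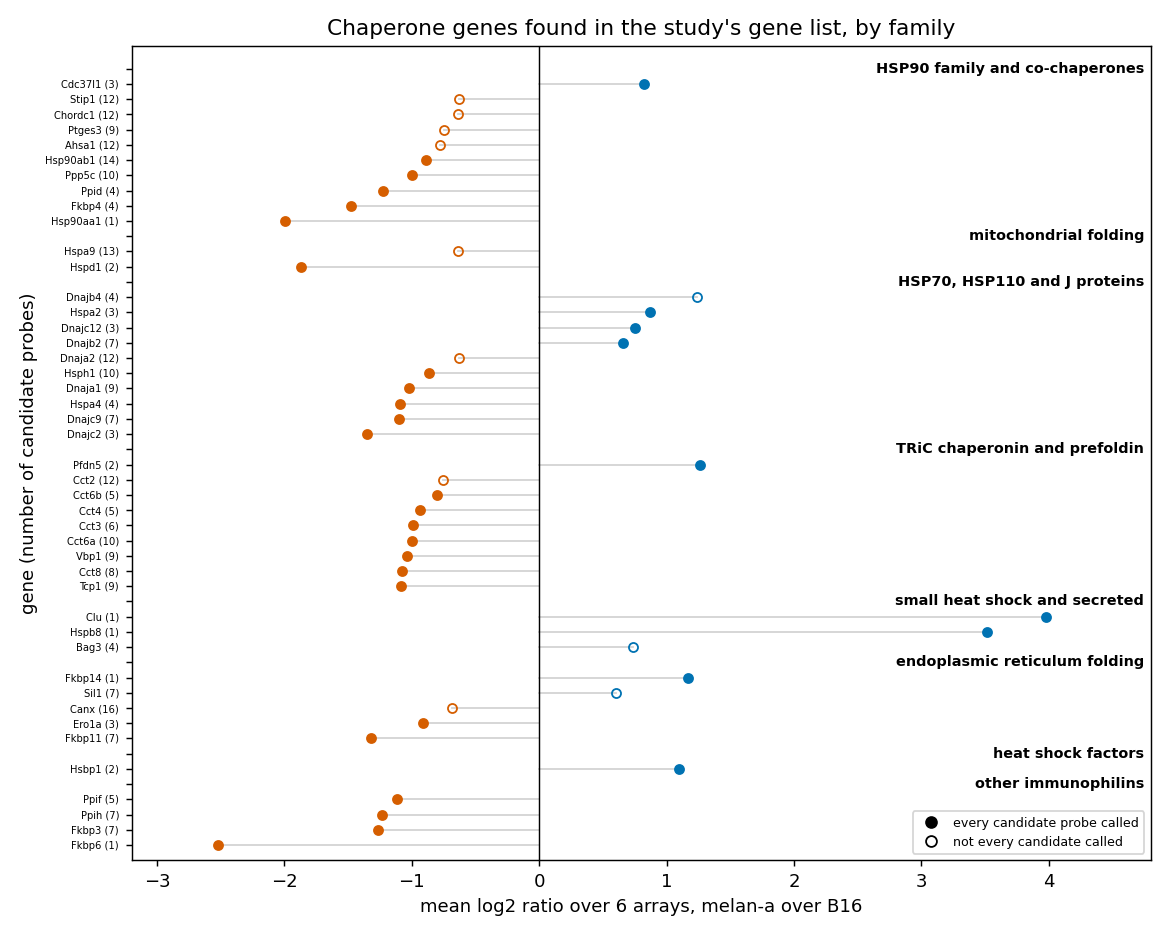
Mean log2 ratio of melan-a over B16 over 6 arrays for the 44 chaperone genes found in the study's list, the 5 described above included, grouped by family, with the number of candidate probes in brackets. Filled points have every candidate called and open points do not. For the 5 described above the call rests on the ratio that chose them and is not a test. Clu (3.98) and Hspb8 (3.51) lie farthest to the right, and Fkbp6 (-2.52), Hsp90aa1 (-1.998) and Hspd1 (-1.87) farthest to the left.

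The entries closest to each chaperone over the 6 arrays were sought among 348 entries with a symbol and a single unshared candidate, by the root mean square of the differences in log2 ratio. The neighbors of Hspb8 were the receptor tyrosine kinase Axl at 0.27, the serine protease Prss23 at 0.40 and the choline transporter Slc44a1 at 0.43. Those of Clu were Zfp385c at 0.95 and 2900026A02Rik and the actin-binding thymosin Tmsb4x both at 1.03. Those of Hsp90aa1 were Fkbp6 at 0.70, transferrin (Trf) at 0.74 and the ubiquitin hydrolase Uchl1 at 0.77.

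Both candidates of Hspd1 were closest to Fscn1, the actin-bundling fascin, at 0.29 and 0.36. Uchl1 (0.34) and the condensin subunit Ncaph (0.53) followed for the first candidate, and Trf (0.62) and Tex30 (0.74) for the second. The candidates of Fkbp4 fell apart by this measure. A_51_P297434 was closest to Nme1 (0.41), Depdc1a (0.43) and Ncaph (0.46), and A_52_P33097 to Wdhd1 (0.32), Depdc1a (0.33) and the primase subunit Prim1 (0.45). A_52_P585104 was closest to the nucleoporin Nup153 (0.45), Fscn1 (0.57) and the importin Ipo11 (0.62), and A_52_P592749 to Nup153 (0.29), Tex30 (0.50) and Cyb5a (0.52). All arrays enter each of these distances, so they hold array effects as well as those of the cell lines. The mean ratio that named the probes enters too, so an entry with a like fold can lie near on that account. A short distance thus does not show that genes vary together.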

How the data were processed

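The deposited array files hold log2 signals of each dye, which the authors extracted with ImaGene 6.0.1 and normalized within each array by global lowess (smoothing 0.2, no background correction, per the file headers). Mean spot signals were turned to melan-a over B16 by the dye labels. The file of replicate 3 lists Cy5 first. Only spots whose dyes summed to over 400 were kept, spots of 1 probe were averaged, and a probe needed 3 of 6 arrays. The study states this limit for background-subtracted intensity, which the files do not hold, so fewer dim spots were removed here. A one-class model, and another with a dye orientation term, were run in limma 3.58.1 (R 4.3.3) over the 39687 probes left, with Benjamini-Hochberg adjustment. Scripts were tested on simulated data, and tables were made with Python 3.11.15, numpy 2.4.6 and pandas 2.3.3.

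Names came only from the study's gene list, by symbol or by accession through RefSeq's gene table: 2381 of 3549 entries have a symbol, an entry has a median of 5 candidate probes, and 490 have 1 that no other entry shares. The study lists for each gene its feature with the largest fold. The members and lists were chosen with earlier results of these data known. Besides the 5 chaperones and their candidates, the text names up to 4 genes of each list with the largest mean ratio, those against their list's majority, and the 3 nearest entries of each candidate. Alternatives were other signals, filters, centring, a variance trend, SAM with 64 sign permutations, and leaving out each array. The number of arrays limits the precision.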

Additional observations from a re-analysis of the deposited data

How the results depend on the processing

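The mean log2 ratios of the 9 member probes kept their direction and moved by less than their SD in all 99 values under alternatives. Most of these values could hardly have come out otherwise, so their number is not a test. The choice of genes fixed the direction, and leaving out 1 array cannot move a mean by its SD. Changing or dropping the limit on the summed signal left these means unchanged, and centring hardly moved them. Median spot signals and scaled array spreads were the alternatives left that could move them further. Every dye effect stayed above an adjusted p of 0.10 in limma under the alternatives, and that of Hsp90aa1 ran from 1.28 to 2.19 (adjusted p 0.129 to 0.550). The dye effects of Clu (-0.495 with the main settings), Hspb8 (-0.385) and the Fkbp4 candidate A_52_P585104 (-0.105) changed sign under some alternatives. With the array spreads scaled to 1 value, an alternative chosen after seeing the data, that of Clu was 0.17 and that of Hspb8 0.16, and with median spot signals that of the Fkbp4 candidate A_52_P585104 was 0.046. The cause was not tested. Leaving out 1 array gave dye effects of -1.49 to 0.29 for Clu (above 0 without replicate 2 or 5), -1.04 to 0.01 for Hspb8 (above 0 without replicate 4) and -0.29 to 0.10 for that Fkbp4 candidate (above 0 without replicate 1).

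Against 7 higher and 21 lower calls of other list genes, leaving out 1 array gave 4 to 6 higher and 10 to 19 lower, lowest without replicate 2. With all arrays the calls were 5 and 15 at a summed signal above 1000, 6 and 20 without that filter or with centring, and 8 and 26 with a dye orientation term. Over all probes leaving out 1 array gave 1576 to 2235 higher and 2011 to 2815 lower, and one-class SAM gave 2142 and 2588. Each array holds both lines, so the ratios tested are already paired by replicate. The value table of the series matrix was planned as an alternative and was not run, since its rows name no probe. B16 signals of Clu and Hspb8 below the control-spot level on 1 array each, and that of Clu little above it on replicate 2, limit those ratios.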
